A study of Mus musculus with 26 samples.

Results

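The genes described here are the collagens other than Col4a1 and Col4a2. They were chosen by symbol alone, as the rows of both count tables named Col, a number, a and a number, and 42 of the 55291 rows of each table qualified (44 with Col4a1 and Col4a2). By class they comprise 11 fibrillar collagens, 4 chains of type IV (Col4a3 to Col4a6), 6 chains of type VI, 1 chain of type VII, 3 short-chain collagens, 9 FACITs (fibril-associated collagens with interrupted triple helices), 4 transmembrane collagens, 2 multiplexins and 2 others, Col26a1 and Col28a1. No measured value entered this rule, but earlier results of these data were known when the members were chosen.

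Collagen chains assemble as trimers in the endoplasmic reticulum, where proline and lysine residues are hydroxylated, and most are then secreted, trimmed and cross-linked into the extracellular matrix. Fibrillar collagens such as types I, III and V form the cables of connective tissue, type IV forms the sheet of basement membranes, type VI forms beaded filaments between them, FACITs decorate fibrils, and the multiplexin Col18a1 is a basement membrane proteoglycan from which the anti-angiogenic fragment endostatin is released. In the early embryo collagens are best known from basement membranes, cartilage and mesenchyme, and neuroepithelium rests on a basement membrane that contains type IV and type XVIII collagen.

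RNA-seq counts came from 26 libraries of mouse E14 embryonic stem cells (ESCs) and of neural progenitor cells (NPCs) made from them in 2 days, in 10 groups and 2 experiments, which were counted in separate tables. The rescue experiment had 2 libraries in each of 4 groups, the ESCs being ESC-WT and ESC-ΔZF1 and the NPCs NPC-WT and NPC-ΔZF1. The cells of these 4 groups all carried mAID-eGFP on both copies of the chromatin factor CTCF, a heterozygous OsTIR1(F74G) at Rosa26, a homozygous mCherry reporter at Hb9 (Mnx1) and a doxycycline-inducible Flag-Halo CTCF at Tigre, which was wild-type or lacked the RNA-binding zinc finger 1 (ΔZF1). All 4 groups received 1 µM 5-Ph-IAA, which degrades the endogenous CTCF, and 1 µg/ml doxycycline for 24 hours, so no group without degradation entered these comparisons. Each rescue genotype was 1 clone, with the WT protein in C7-E10-D11 and the deletion in C7-E10-F6, and an effect of the clone cannot be told apart from one of the CTCF protein. The truncation experiment had 3 libraries in each of 6 groups, which were ESCs and NPCs of the parental line (WT), of Grb10 pA and of Podxl pA, where pA marks a homozygous insertion of eGFP with an SV40 polyadenylation signal behind the first coding exon of the gene, again in clonal lines. ESCs grew in N2B27 with LIF, CHIR99021 and PD0325901 on gelatin, and NPCs in N2B27 on laminin. The study calls the libraries of a group biological replicates. Neither it nor the labels say whether they came from separate cultures, so the p-values measure only the spread between these libraries.

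Library totals ranged from 6425179 to 28730435 counts in the rescue table and from 1907505 to 8845087 counts in the truncation table. Levels are given as CPM, that is counts scaled to a library of 1000000 with TMM normalization. In the truncated lines Podxl was at 3.01 to 12.9 CPM in ESC Podxl pA against 26.4 to 34.9 CPM in ESC WT, and Grb10 at 30.4 to 35.3 CPM in ESC Grb10 pA against 118 to 127 CPM. The 8 ESC markers summed to 5750 to 6599 CPM in the ESCs and 509 to 757 CPM in the NPCs of the rescue table. The sum of the 8 NPC markers was lower in NPCs than in ESCs, at 131 to 175 CPM in NPC-WT against 281 to 319 CPM in ESC-WT and at 204 to 235 CPM in NPC WT against 301 to 367 CPM in ESC WT. Sox2, which is also an ESC marker, made up most of this sum in ESC-WT, at 240 and 269 CPM, and was at 25.4 and 31.02 CPM in NPC-WT. Sox1 rose in all 5 comparisons of NPCs with ESCs, whereas Hes5 stayed below 1 CPM in every library and Pou3f2 below 1 CPM in every library of NPC-WT and NPC-ΔZF1. Of the mesenchyme markers Lum, Dcn and Postn stayed below 1 CPM in every library of both experiments. One library stood apart in the collagens: NPC-WT replicate 2 was higher than replicate 1 in 29 of the 31 members tested, with a median ratio of 1.46 against 1.02 over all genes, while replicate 2 was the higher in 14 members for ESC-WT, 22 for ESC-ΔZF1 and 18 for NPC-ΔZF1. The counts of collagens called that rest on NPC-WT are therefore also given without each of its libraries.

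Of the 42 collagens, 31 had enough counts to be tested in the rescue table and 17 in the truncation table. None was at 0 in every library of a table, but 6 stayed below 10 counts in every library of the rescue table and 18 in the truncation table, where the depth was lower. A count of 0 allowed up to 0.106 to 0.459 CPM in a rescue library and up to 0.338 to 1.55 CPM in a truncation library, taken as 3 counts and covering counting error only. The members not tested in the rescue table were Col24a1, Col4a3, Col4a4, Col6a3, Col6a6, Col8a1, Col10a1, Col9a1, Col19a1, Col15a1 and Col28a1. In the truncation table the type IV chains, Col3a1, Col5a2 and Col6a1 were also too low to test, so none of those could be compared there.

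Per kilobase of exon, Col18a1 was far above the other members in both experiments. Averaged over the 8 rescue libraries it stood at 86.7 CPM per kb, followed by Col5a1, the type V chain that starts type I fibrils, at 5.55, Col2a1, the main collagen of cartilage, at 4.57, Col9a2, a FACIT bound to type II fibrils, at 2.68, and Col1a1, a chain of type I, at 2.38. Over the 18 truncation libraries Col18a1 reached 56.8 CPM per kb, then Col5a1 2.20, Col9a2 1.76, Col13a1, a transmembrane collagen known from the neuromuscular junction, 1.43, and Col26a1 1.42. The values of neighbours such as Col13a1 and Col26a1 lay closer together than the spread between libraries.

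Col18a1 was read at 144 and 104 CPM in ESC-WT, 160 and 160 CPM in ESC-ΔZF1, 894 and 1472 CPM in NPC-WT, and 972 and 963 CPM in NPC-ΔZF1. All 4 NPC libraries lay above all 4 ESC libraries, and the NPC-ΔZF1 libraries lay between those of NPC-WT. Col5a1 stood at 33.3 and 35.7 CPM in ESC-WT, 33.0 and 34.2 CPM in ESC-ΔZF1, 49.1 and 85.1 CPM in NPC-WT, and 52.6 and 53.7 CPM in NPC-ΔZF1, with the same arrangement among the NPCs. Col2a1 gave 8.25 and 6.39 CPM in ESC-WT, 6.10 and 7.63 CPM in ESC-ΔZF1, 52.5 and 119 CPM in NPC-WT, and 67.1 and 70.3 CPM in NPC-ΔZF1. Its NPC libraries were again higher without exception, and replicate 2 of NPC-WT was the highest in each of these genes. Col9a2 showed 9.78 and 8.48 CPM in ESC-WT, 9.99 and 10.0 CPM in ESC-ΔZF1, 6.19 and 10.1 CPM in NPC-WT, and 4.86 and 7.10 CPM in NPC-ΔZF1, so that its ESC and NPC libraries overlapped. None of these 4 genes was called between ΔZF1 and WT in either cell type.

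**Figure D1:**
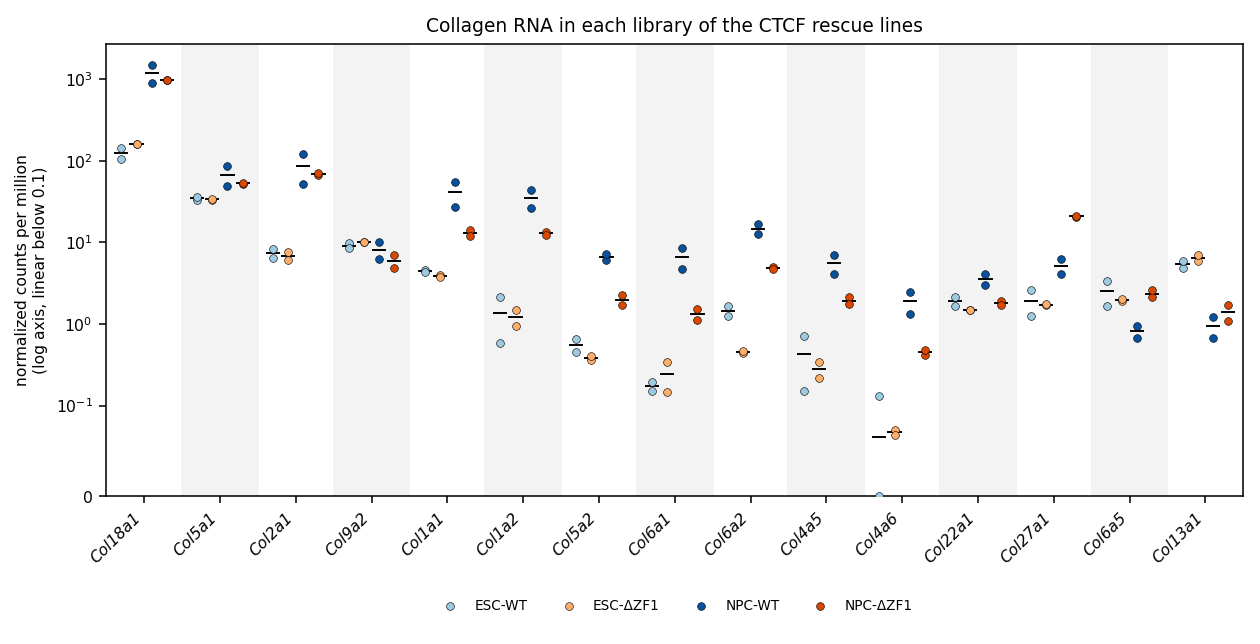
Level of 15 collagens in each of the 8 libraries of the CTCF rescue lines, in CPM on an axis that is logarithmic above 0.1 and linear below, with a point per library and a black bar at the group mean. Col18a1 stands highest in every group, Col6a1, Col6a2, Col5a2, Col4a5 and Col4a6 are lower in both NPC-ΔZF1 libraries than in both NPC-WT libraries, and Col27a1 and Col6a5 are higher.

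To ask how the zinc finger deletion affected collagen RNA in NPCs, NPC-ΔZF1 was compared with NPC-WT. A gene was called by edgeR's quasi-likelihood test at an adjusted p of at most 0.05 over all genes if it also changed by 0.5 or more, up or down, on the log2 scale. By this measure 10 of the 31 members tested were called, against 17.6% of all genes. They were 8 that fell, against 10.5% of all genes, and 2 that rose, against 7.19%. The members that fell were the type I chains Col1a1 and Col1a2, the type V chain Col5a2, the type IV chains Col4a5 and Col4a6, the type VI chains Col6a1 and Col6a2, and the FACIT Col22a1, and those that rose were Col27a1, a fibrillar collagen of cartilage, and Col6a5, a further type VI chain. The median log2 fold change of the members was -0.41, against -0.00 over all genes. In bulk RNA, fewer cells of a type and less RNA per cell cannot be told apart.

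**Figure D2:**
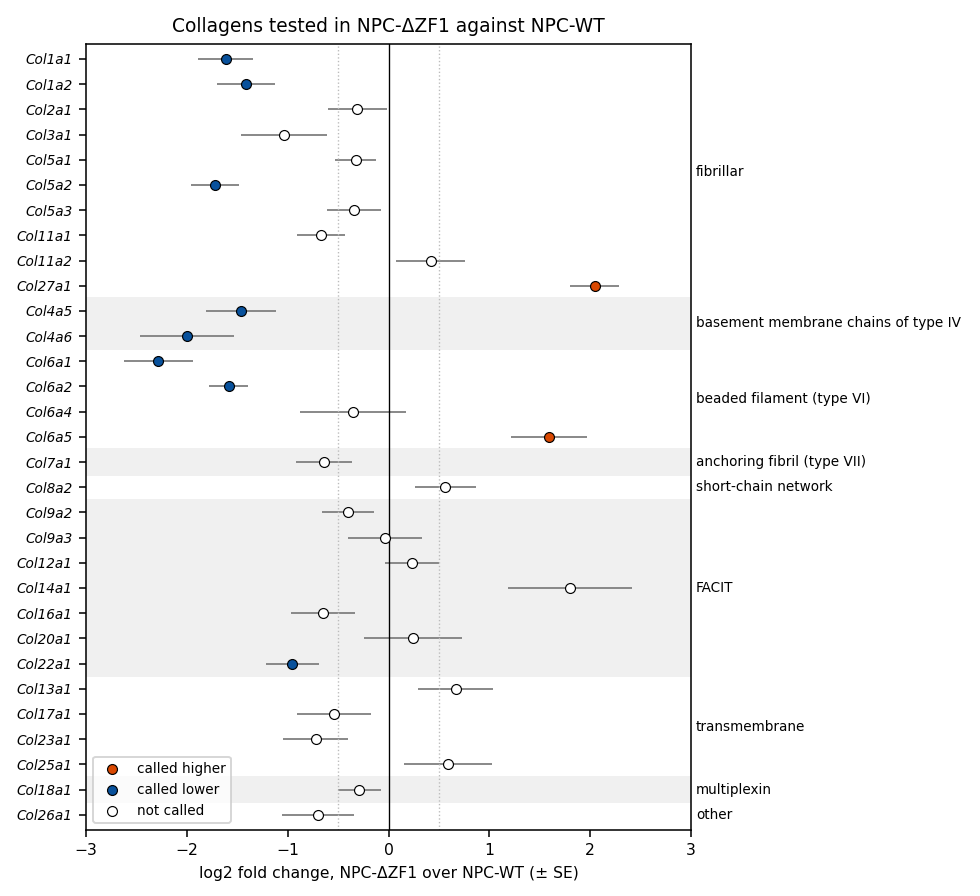
Log2 fold change with its standard error of the 31 collagens tested in NPC-ΔZF1 against NPC-WT, 2 libraries each, ordered by class, with dotted lines at 0.5 in either direction. Filled points mark the 8 called lower and the 2 called higher, and open points the 21 not called.

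Col6a1 and Col4a6 fell most, by 2.29 and 2.00 on the log2 scale, followed by Col5a2, Col1a1, Col6a2, Col4a5, Col1a2 and Col22a1. Col6a1, on chromosome 10 at 76708792 to 76726168 of GRCm38 on the minus strand, was read at 4.70 and 8.51 CPM in NPC-WT and at 1.13 and 1.51 CPM in NPC-ΔZF1. Both NPC-ΔZF1 libraries were below both NPC-WT libraries, a log2 fold change of -2.29 ± 0.34 (SE, n = 2 per group) or 4.88-fold lower (edgeR adjusted p = 0.0019). Its partner in the type VI trimer, Col6a2, which lies in tandem with it (chr10:76595762-76623630), went from 12.6 and 16.7 CPM to 4.97 and 4.67 CPM, again without overlap (-1.59 ± 0.20, adjusted p = 0.00076). The third chain of the classical trimer, Col6a3, had at most 3 counts in any rescue library and was not tested. Col6a4, at 0.551 and 1.03 CPM in NPC-WT and 0.388 and 0.772 CPM in NPC-ΔZF1, overlapped between the groups and was not called.

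Col4a5 and Col4a6 encode chains that share 1 network of some basement membranes, and the genes sit head to head on the X chromosome with starts 1309 bases apart in the annotation (chrX:141475385-141689234 on the plus strand and chrX:141165403-141474076 on the minus strand). Col4a5 was at 4.07 and 6.96 CPM in NPC-WT and 2.11 and 1.77 CPM in NPC-ΔZF1 (log2 fold change -1.47 ± 0.34, adjusted p = 0.0154). Col4a6 was at 1.31 and 2.49 CPM and at 0.423 and 0.478 CPM, from 60 and 25 counts in all (-2.00 ± 0.46, adjusted p = 0.0146). In both genes the 2 groups did not overlap. The other head-to-head pair, Col4a3 and Col4a4, whose starts are 72 bases apart, was too low to test, with at most 3 and at most 12 counts in a library.

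Among the fibrillar collagens 3 of 10 tested fell and 1 rose. Col5a2 (chr1:45374321-45503282, minus strand), the chain that joins Col5a1 in type V collagen, went from 6.14 and 7.13 CPM to 2.26 and 1.73 CPM (-1.72 ± 0.24, adjusted p = 0.0013). Col1a1 (chr11:94936224-94953042, plus strand) went from 27.2 and 54.7 CPM to 14.3 and 12.1 CPM (-1.61 ± 0.27, adjusted p = 0.0032), and Col1a2 (chr6:4504814-4541544, plus strand), the other chain of type I, from 26.2 and 43.6 CPM to 13.5 and 12.4 CPM (-1.42 ± 0.29, adjusted p = 0.0080). Both groups were separate in all 3, and in Col1a1 and Col1a2 the higher NPC-WT library was replicate 2. Col5a1, which the type V trimer also needs, gave -0.33 ± 0.21 and was not called (adjusted p = 0.282).

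Col27a1 (chr4:63214004-63334991, plus strand) moved the other way. It was read at 4.11 and 6.27 CPM in NPC-WT and at 20.5 and 21.2 CPM in NPC-ΔZF1, which is 4.13-fold higher (log2 2.05 ± 0.24, adjusted p = 0.00066). Col6a5 (chr9:105856078-105960643, minus strand) rose from 0.678 and 0.945 CPM to 2.15 and 2.57 CPM (1.59 ± 0.37, adjusted p = 0.0152). Neither gene's groups overlapped, and both NPC-ΔZF1 libraries stood above every ESC library for Col27a1 only. Col22a1 (chr15:71795795-72034227, minus strand), a collagen of tissue junctions, fell from 3.01 and 4.12 CPM to 1.90 and 1.69 CPM (-0.96 ± 0.27, adjusted p = 0.0308).

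The stretches of 250 bases before the RefSeq starts of 5 of these genes are shown because the genes moved in step or apart: the head-to-head pair Col4a5 and Col4a6, Col6a1 with the largest fall, Col1a2 of type I, and Col27a1 with the largest rise. The sequences are from RefSeq on GRCm38.p6, whose starts can differ from those of the gene annotation, and 33 of the 42 members had an entry. The stretches of Col27a1 and Col1a2, with their matches, lie inside the gene coordinates given above. Those of Col6a1 and Col4a5 lie partly inside them. Capitals mark matches on either strand to 4 motifs, which were chosen after the sequences had been read. The first was the TATA box, spelled TATAAA. The second was the CCAAT box, which has those letters as its name. The GC box was searched as GGGCGG. The last was part of the CTCF motif, CCNNNAGNNGGC. The stretch of Col4a5 lies at chrX:141475169-141475418 on the plus strand, that of Col4a6 at chrX:141474077-141474326 on the minus strand, that of Col6a1 at chr10:76726045-76726294 on the minus strand, that of Col1a2 at chr6:4505368-4505617 on the plus strand, and that of Col27a1 at chr4:63215162-63215411 on the plus strand.
Col4a5: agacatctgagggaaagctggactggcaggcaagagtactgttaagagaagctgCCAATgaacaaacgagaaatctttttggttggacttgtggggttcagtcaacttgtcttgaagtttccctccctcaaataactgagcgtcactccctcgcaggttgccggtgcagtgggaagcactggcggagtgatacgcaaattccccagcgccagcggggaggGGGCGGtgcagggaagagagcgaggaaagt
Col4a6: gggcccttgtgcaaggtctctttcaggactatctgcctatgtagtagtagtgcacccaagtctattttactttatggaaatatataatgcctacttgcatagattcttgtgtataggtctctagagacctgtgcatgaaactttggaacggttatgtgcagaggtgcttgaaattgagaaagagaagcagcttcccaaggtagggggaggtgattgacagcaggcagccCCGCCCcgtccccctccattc
Col6a1: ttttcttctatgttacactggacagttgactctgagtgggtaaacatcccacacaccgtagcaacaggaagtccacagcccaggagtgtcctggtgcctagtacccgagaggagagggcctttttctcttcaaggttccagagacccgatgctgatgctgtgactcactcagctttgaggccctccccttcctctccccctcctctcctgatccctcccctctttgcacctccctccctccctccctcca
Col1a2: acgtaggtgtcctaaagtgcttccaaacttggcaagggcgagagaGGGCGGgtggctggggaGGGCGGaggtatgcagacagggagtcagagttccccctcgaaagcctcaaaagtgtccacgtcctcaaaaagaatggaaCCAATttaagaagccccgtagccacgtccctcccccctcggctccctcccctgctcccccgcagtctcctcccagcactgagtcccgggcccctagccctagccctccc
Col27a1: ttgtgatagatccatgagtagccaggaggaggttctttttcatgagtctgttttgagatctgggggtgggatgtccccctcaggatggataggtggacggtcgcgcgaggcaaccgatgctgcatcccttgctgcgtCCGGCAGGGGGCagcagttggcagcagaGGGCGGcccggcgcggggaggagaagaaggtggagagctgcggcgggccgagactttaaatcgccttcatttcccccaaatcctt

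Col4a5 holds a CCAAT box 196 bases and a GC box 30 bases before its start, and Col4a6 a GC box 21 bases before its start on the reverse strand. Col1a2 holds a CCAAT box at 109 bases and GC boxes at 205 and 188 bases, Col27a1 a GC box at 85 bases and the CTCF letters starting 113 bases before the start, and Col6a1 none of the 4 motifs. The GC box was in 20 of the 33 members with an entry and in 32.7% of all 32851 promoters of this length. The CCAAT box was in 10 members and 33.9% of promoters, the TATA box in 5 and 12.4%, and the CTCF letters in 3 (Col11a1, Col27a1 and Col13a1) and 7.17%. The motifs do not overlap one another in these stretches, and a match is a run of letters, not a measured binding site.

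The 21 members not called in NPC-ΔZF1 ranged from -1.04 (Col3a1) to 1.80 (Col14a1, from 6 counts in NPC-WT and 34 in NPC-ΔZF1, adjusted p = 0.0656). Of all 31 tested, 22 had a log2 fold change below 0 and 9 above. By class, 1 of 7 FACITs tested was called, and none of the 4 transmembrane collagens, nor Col7a1, Col8a2, Col18a1 or Col26a1. Among those not called, Col11a1 stood at -0.67 ± 0.24 (adjusted p = 0.0760), Col7a1, which anchors the epidermis, at -0.64 ± 0.28 (adjusted p = 0.131) and Col8a2, of the cornea's Descemet membrane, at 0.56 ± 0.30 (adjusted p = 0.213).

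The count of calls depended on single libraries. Without NPC-WT replicate 1 it was 20, with 18 that fell, and these held all 10. Without NPC-WT replicate 2 it was again 10, but with Col22a1 and Col4a6 lost and Col8a1 and Col8a2 gained. Without NPC-ΔZF1 replicate 1 or without NPC-ΔZF1 replicate 2 it was 5, with Col1a2, Col22a1, Col4a5, Col4a6 and Col6a5 lost each time. DESeq2 called 7, with Col1a2 and Col22a1 among those lost. A fit of only NPC-ΔZF1 and NPC-WT called 8, with Col22a1 and Col4a6 lost. Col6a1, Col6a2, Col5a2, Col1a1 and Col27a1 were called under all alternatives run. Chromosome 11 gave lower values in the ΔZF1 lines, with a median log2 fold change of -0.57 over 1322 genes in NPCs and -0.46 in ESCs. With that median in the offsets the fall of Col1a1, which lies on this chromosome, was -1.05 and still called by edgeR, and the value of Col23a1, also there, went from -0.72 to -0.16.

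Markers of other cell types moved with the same comparison. Of the 12 extraembryonic endoderm markers 11 were tested and 10 rose in NPC-ΔZF1, among them Cubn and Dab2, and the sum of all 12 was 903 to 990 CPM in NPC-WT and 3949 to 4052 CPM in NPC-ΔZF1, with Thbd below 1 CPM throughout. Of the 6 surface ectoderm markers 5 were tested and 3 fell, namely Krt8, Krt18 and Tfap2c. Their sum was 2818 to 4134 CPM in NPC-WT and 1135 to 1191 CPM in NPC-ΔZF1, with Krt5 below 1 CPM in all of these libraries. Krt8, at 967 and 1386 CPM in NPC-WT, and Krt18, at 1674 and 2579 CPM, made up most of this sum. Trp63 was at 3.90 and 1.46 CPM and Krt14 at 1.02 and 1.38 CPM in NPC-WT. The 5 cartilage markers summed to 23.5 to 23.8 CPM in NPC-WT and 17.8 to 18.3 CPM in NPC-ΔZF1, with none of the 5 called by edgeR and 1 at an unadjusted p under 0.05. The 8 mesenchyme markers summed to 23.4 to 26.6 CPM in NPC-WT and 28.8 to 28.9 CPM in NPC-ΔZF1, with 1 of 4 tested, Twist1, that rose. Of 5 neural crest markers tested Tfap2a rose (sums of 75.2 to 89.5 and 69.6 to 73.6 CPM), of 4 endothelial markers Kdr fell (19.4 to 26.7 and 15.7 to 17.0 CPM), and of 6 NPC markers Zic1, Sox1 and Sox2 rose and Nes fell (131 to 175 and 153 to 158 CPM). Without NPC-WT replicate 1 and without NPC-WT replicate 2 alike, 10 extraembryonic endoderm markers rose while 1 cartilage marker and 2 endothelial markers fell. Surface ectoderm markers then gave 3 and 4 falls, while neural crest markers gave 1 rise and 2 falls without replicate 1 and no call without replicate 2. Leaving out NPC-ΔZF1 replicate 1 or replicate 2 left 9 extraembryonic endoderm markers that rose and 2 surface ectoderm markers that fell. The part of these cells in the changes of collagen RNA was not tested.

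In ESCs, no member was called between ESC-ΔZF1 and ESC-WT by edgeR, against 3.61% of all genes, while 5 had an unadjusted p under 0.05. DESeq2 called 0 and gave no adjusted p for 18 of all 42 members, tested by edgeR or not. The median log2 fold change was -0.21, against -0.01 over all genes. Col6a2 was lowest in p, at 1.68 and 1.24 CPM in ESC-WT and 0.441 and 0.473 CPM in ESC-ΔZF1, from 30 and 13 counts (-1.59 ± 0.42, adjusted p = 0.0669). Its groups did not overlap, and it was called with Col6a4, Col17a1 and Col26a1 where only these 2 groups were fitted, and with Col6a4 alone without the filter on low counts. Col25a1, a transmembrane collagen found in amyloid plaques, had 5 counts in ESC-WT and 0 in both ESC-ΔZF1 libraries. Against a floor of 3 counts over the group this was 2.17-fold lower, a value that leaves out the counting error of the 5 counts. Apart from that gene the values ranged from -1.81 (Col6a4) to 1.29 (Col20a1).

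Whether the deletion acted differently in NPCs and ESCs was tested as an interaction. No member was called by edgeR, against 2.70% of all genes, with 6 at an unadjusted p under 0.05. DESeq2 called 2, Col1a1 and Col27a1. The lowest adjusted p was that of Col27a1, whose effect in NPCs exceeded that in ESCs by 2.03 ± 0.47 on the log2 scale (adjusted p = 0.0558), followed by Col6a5 (2.06 ± 0.52, adjusted p = 0.0726). Without NPC-WT replicate 1 the count was 11, and without NPC-WT replicate 2 it was 3. For Col6a2 the log2 fold change was -1.59 in both cell types.

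Next, differentiation was compared in the rescue lines. In NPC-WT against ESC-WT 22 of 31 members were called, against 41.9% of all genes. Of these, 20 rose, against 22.0% of all genes, and 2 fell, against 19.9%. The rise took in 9 of the 10 fibrillar collagens tested (not Col11a2), both type IV chains tested, Col6a1, Col6a2, Col7a1, Col8a2, Col18a1, the FACITs Col12a1, Col16a1 and Col22a1, and the transmembrane Col23a1. The median log2 fold change was 1.70, against 0.01 over all genes. Leaving out 1 library at a time gave 16 to 25 calls, with 23 without NPC-WT replicate 1 and 25 without NPC-WT replicate 2. In the same comparison all 8 ESC markers fell, 9 of 11 extraembryonic endoderm markers and 5 of 5 surface ectoderm markers tested rose, and their part was not tested. This comparison and that of NPC-ΔZF1 with NPC-WT share the NPC-WT libraries and are not independent.

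The 4 largest rises were those of Col6a1, Col1a2, Col4a6 and Col3a1. Col6a1 went from 0.153 and 0.196 CPM in ESC-WT, 4 counts in all, to 4.70 and 8.51 CPM in NPC-WT (5.09 ± 0.57, adjusted p = 6.16e-05). Col1a2 went from 2.14 and 0.587 CPM to 26.2 and 43.6 CPM (4.97 ± 0.43, adjusted p = 1.19e-05). Col4a6 and Col3a1, the chain of the reticular fibres of type III, had 0 and 0.130 CPM in ESC-WT, that is 2 counts each. Their NPC-WT levels were 1.31 and 2.49 CPM for Col4a6 and 1.19 and 2.06 CPM for Col3a1. The ratios of the counts were 18.6 (95% counting interval 4.94 to 157) and 16.1 (4.25 to 137). Col18a1 rose 9.55-fold (3.26 ± 0.23, adjusted p = 3.42e-06) from the highest level of all members. In none of these genes did an ESC-WT library reach an NPC-WT library.

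Col13a1 and Col6a5 fell with differentiation. Col13a1 was at 4.89 and 5.87 CPM in ESC-WT and at 0.678 and 1.20 CPM in NPC-WT, 6.22-fold lower (-2.64 ± 0.35, adjusted p = 0.000194). Col6a5 went from 1.68 and 3.39 CPM to 0.678 and 0.945 CPM (-1.80 ± 0.40, adjusted p = 0.0043), a call lost without ESC-WT replicate 2 (-1.10, edgeR adjusted p = 0.148). Both groups were separate in each gene. The remaining 9 members lay between -1.30 (Col14a1) and 1.28 (Col25a1).

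In the ΔZF1 line 24 of 31 members were called between NPC-ΔZF1 and ESC-ΔZF1, against 37.3% of all genes. They were 22 that rose, against 20.4%, and 2 that fell, Col13a1 and Col9a2, against 16.9%. All 10 fibrillar collagens tested rose, though Col5a1 and Col11a2 lost their call when any 1 of the 4 libraries was left out, Col11a2 also with DESeq2. Col5a3 lost its call without ESC-ΔZF1 replicate 1 and without NPC-ΔZF1 replicate 2. Col3a1, with 2 counts in ESC-ΔZF1, lost its call without ESC-ΔZF1 replicate 1 and without ESC-ΔZF1 replicate 2. The median log2 fold change was 2.13, against 0.02 over all genes. The extraembryonic endoderm markers summed to 351 to 377 CPM in ESC-ΔZF1 and 3949 to 4052 CPM in NPC-ΔZF1, and the surface ectoderm markers to 142 to 174 CPM and 1135 to 1191 CPM. Their part in the collagen changes was not tested. Col27a1 went from 1.69 and 1.76 CPM to 20.5 and 21.2 CPM, 12.0-fold (3.59 ± 0.28, adjusted p = 5.93e-06). Col25a1, at 0 in ESC-ΔZF1, was at 0.952 and 0.772 CPM in NPC-ΔZF1. Against the floor of 3 counts over the group this was 8.19-fold higher, without the counting error of the NPC-ΔZF1 counts. Col13a1 fell by 2.21 and Col9a2 by 0.74 on the log2 scale (adjusted p = 0.000181 and 0.0374). The call of Col9a2 was lost without ESC-ΔZF1 replicate 1, without ESC-ΔZF1 replicate 2 and without NPC-ΔZF1 replicate 1. Leaving out 1 library at a time gave 16 to 20 calls.

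The parental E14 cells went through the same differentiation without degrons, at lower depth. In NPC WT against ESC WT 10 of 17 members were called, against 32.8% of all genes, with 9 that rose, against 16.5%, and 1 that fell, against 16.3%. The median log2 fold change was 1.36, against -0.01 over all genes, and 10 of 11 extraembryonic endoderm markers tested rose in the same comparison. Col2a1 went from 1.09, 0.514 and 1.55 CPM in ESC WT to 23.0, 29.5 and 21.6 CPM in NPC WT, 26.5-fold (4.73 ± 0.28, n = 3 per group, adjusted p = 9.73e-14). Col8a2 went from 0.218, 0.514 and 0 CPM, 4 counts in all, to 10.7, 6.11 and 7.08 CPM (4.53 ± 0.48, adjusted p = 1.32e-08). In both, every NPC WT library lay above every ESC WT library. Col1a2, at 0.218, 0 and 0.388 CPM in ESC WT (2 counts) and 3.88, 3.21 and 1.35 CPM in NPC WT, gave a ratio of counts of 19.1 (4.92 to 163). Col6a2, at 0, 0.342 and 0.388 CPM (3 counts) and 2.59, 3.97 and 2.70 CPM, gave 14.4 (4.62 to 72.8).

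Col18a1 rose in the parental cells from 66.3, 65.1 and 70.3 CPM to 719, 761 and 704 CPM, 10.9-fold (3.44 ± 0.11, adjusted p = 3.35e-19). Col5a3 (1.02 ± 0.36), Col27a1 (1.42 ± 0.38) and Col7a1 (1.36 ± 0.51, with overlapping libraries) also rose. Col5a3 lost its call without the filter on low counts, with DESeq2, without ESC WT replicate 2 and without NPC WT replicate 3, and Col7a1 with DESeq2, without ESC WT replicate 2 and without NPC WT replicate 2. Where only ESC WT and NPC WT were fitted, Col5a3, Col7a1 and Col1a2 were not among the calls. Col26a1, a collagen first described in testis and ovary, was the member that fell, from 13.3, 9.42 and 12.4 CPM to 8.09, 6.88 and 4.72 CPM without overlap (-0.79 ± 0.22, adjusted p = 0.0043). Col5a1 did not pass the test, at 17.7, 20.03 and 15.1 CPM in ESC WT and 14.9, 17.4 and 18.9 CPM in NPC WT (-0.07 ± 0.19). Col1a1, which rose 9.08-fold in the WT rescue line, was at 1.09, 1.54 and 1.16 CPM in ESC WT and 0.971, 1.99 and 2.36 CPM in NPC WT (0.47 ± 0.46, adjusted p = 0.424).

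Col6a5 went opposite ways in the WT groups of the 2 experiments. In the parental cells it was at 0.654, 0.856 and 0.777 CPM in ESC WT and at 10.0, 9.93 and 9.77 CPM in NPC WT, 12.5-fold higher (3.64 ± 0.37, adjusted p = 5.71e-09), whereas it fell 3.48-fold in the WT rescue line. The fall was not called without ESC-WT replicate 2, and in the ΔZF1 line Col6a5 was at 1.91 and 2.03 CPM in ESCs and at 2.15 and 2.57 CPM in NPCs (0.26 ± 0.33, adjusted p = 0.558). No WT library of NPCs overlapped one of ESCs in either experiment. The tables were counted and normalized separately and the lines, the treatment and the depth differ, so the difference between the experiments was not tested.

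**Figure D3:**
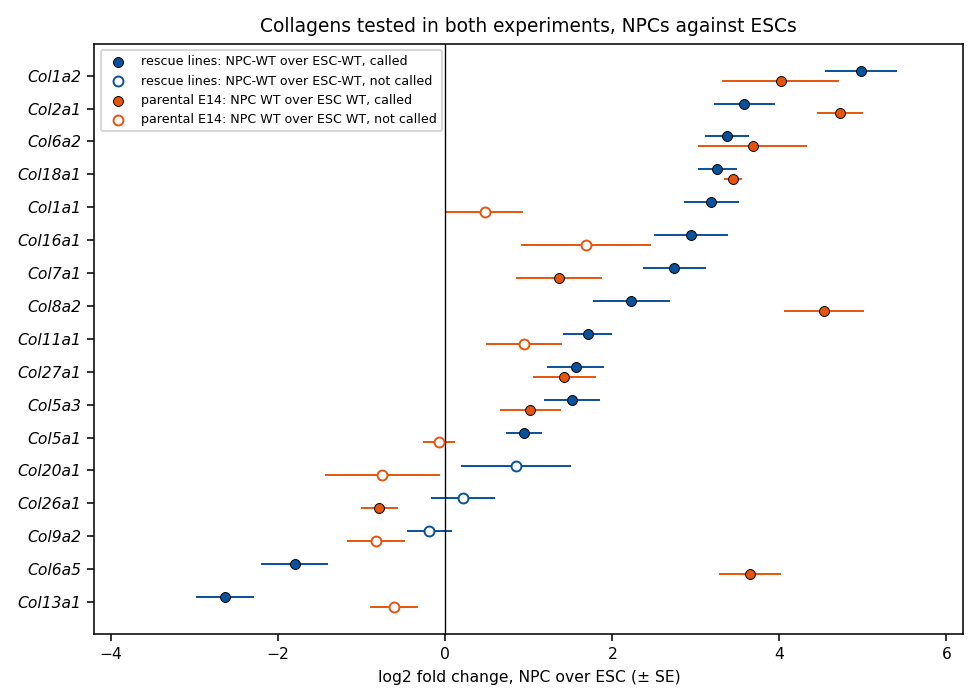
Log2 fold change, with its standard error, of NPCs over ESCs for the 17 collagens tested in both experiments, in the CTCF rescue lines (NPC-WT over ESC-WT, 2 libraries each) and in parental E14 (NPC WT over ESC WT, 3 libraries each), with filled points where called. Col6a5 lies at -1.80 in the rescue lines and at 3.64 in parental E14, and Col18a1 at 3.26 and 3.44.

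All 42 members summed to 814 to 880 CPM in NPC WT, 765 to 799 CPM in NPC Podxl pA and 798 to 823 CPM in NPC Grb10 pA, of which Col18a1 was the greater part. In NPC Podxl pA against ESC Podxl pA 10 of 17 members were called, against 31.8% of all genes, with 8 that rose, against 17.1%, and 2 that fell, Col9a2 and Col13a1, against 14.7%. In NPC Grb10 pA against ESC Grb10 pA 12 were called, against 34.6%, with 7 that rose, against 17.2%, and 5 that fell, against 17.4%, namely Col9a2 (-1.67), Col1a1 (-1.65), Col20a1 (-1.60), Col13a1 (-0.98) and Col26a1 (-0.78). The medians were 0.89 for Podxl pA and 0.73 for Grb10 pA. Col2a1, Col18a1, Col6a2, Col6a5, Col8a2 and Col1a2 rose in all 3 genotypes of this experiment. Of these, Col1a2 had 2 counts in ESC WT, 2 in ESC Podxl pA and 5 in ESC Grb10 pA. It was not among the calls of any of the 3 genotypes where only the groups compared were fitted. In Grb10 pA its call was also lost without ESC Grb10 pA replicate 1. The call of Col13a1 in Podxl pA was lost under 9 of 11 alternatives.

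Truncation of Podxl, which encodes the cell surface sialomucin podocalyxin, went with 1 call among the 17 collagens in ESCs, against 0.339% of all genes (0.0829% for genes that rose). Col18a1 was at 90.2, 97.5 and 104 CPM in ESC Podxl pA and at 66.3, 65.1 and 70.3 CPM in ESC WT, without overlap, 1.44-fold higher (0.53 ± 0.11, adjusted p = 0.034). The call was lost when any 1 of the 6 libraries was left out. Col26a1 was at 7.63, 5.31 and 5.15 CPM, below all ESC WT libraries, and did not pass the test (-0.91 ± 0.22, adjusted p = 0.0832). Replicate 3 of ESC Podxl pA held 11.3 CPM of Cubn, against 0 and 0.937 CPM in its other libraries, and 9.79 CPM of Dab2.

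In NPC Podxl pA against NPC WT edgeR called 0 members, against 0.550% of all genes, with 1 at an unadjusted p under 0.05 (Col8a2, -0.59 ± 0.27) and 0 called by DESeq2. The 17 log2 fold changes lay between -0.71 (Col11a1) and 0.81 (Col16a1). The extraembryonic endoderm markers summed to 1794 to 1898 CPM here, against 978 to 1264 CPM in NPC WT, with 5 of 11 tested that rose and Thbd below 1 CPM. No member was called for a difference of the Podxl pA effect between NPCs and ESCs by edgeR, against 0.0980% of all genes. In that test 3 members had an unadjusted p under 0.05, and DESeq2 called 1, Col18a1 (edgeR -0.64 ± 0.15, adjusted p = 0.0934).

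**Figure D4:**
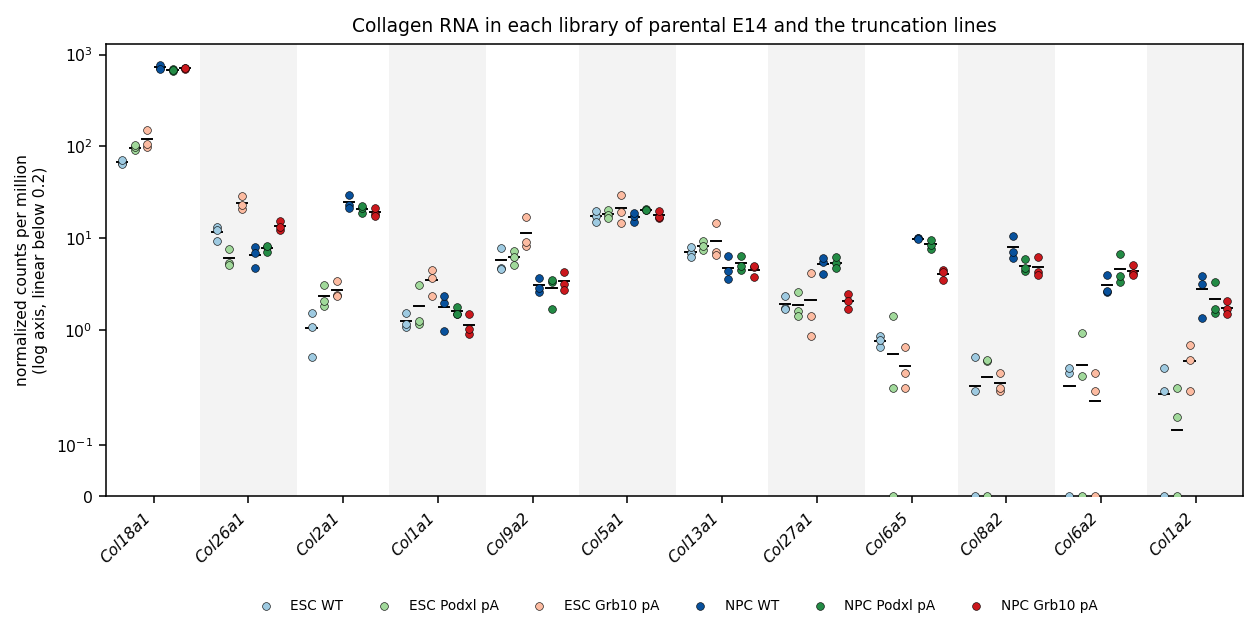
Level of 12 collagens in each of the 18 libraries of parental E14 and the RNA truncation lines, in CPM on an axis that is logarithmic above 0.2 and linear below, with a point per library and a black bar at the group mean. Col26a1 is higher in all Grb10 pA libraries than in the WT libraries of the same cell type, and Col27a1 and Col6a5 are lower in the 3 NPC Grb10 pA libraries than in NPC WT.

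Truncation of Grb10, the adaptor that restrains insulin receptor signalling, went with more calls. In ESCs 5 of 17 members rose, against 4.51% of all genes (9.09% called in either direction), and none fell. Col2a1 was at 2.38, 3.45 and 2.37 CPM in ESC Grb10 pA (1.49 ± 0.43, adjusted p = 0.0195). Col1a1 was at 3.68, 4.49 and 2.37 CPM (1.38 ± 0.41, adjusted p = 0.0225). Col26a1 was at 20.8, 28.6 and 23.0 CPM (1.05 ± 0.18, adjusted p = 0.000198). The WT values of these genes are given above, and no ESC WT library reached an ESC Grb10 pA library in any of them. Col9a2 went from 4.80, 4.62 and 7.77 CPM in ESC WT to 8.22, 16.9 and 9.003 CPM (1.01 ± 0.28, adjusted p = 0.0152), and Col18a1 to 98.9, 152 and 106 CPM (0.82 ± 0.11, adjusted p = 9.46e-06), both without overlap.

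Replicate 2 of ESC Grb10 pA was the highest of its group in all 5 of these genes. Without it the count was 2, with Col18a1 and Col26a1, and it was 3 without ESC WT replicate 1 or without ESC WT replicate 2. Those 2 genes were called under all 11 alternatives, whereas Col1a1 was called under 4 of them, Col9a2 under 7 and Col2a1 under 8. Col20a1, a FACIT, was at 3.25, 5.18 and 2.61 CPM, above all ESC WT libraries (1.53, 1.54 and 0.777 CPM), and did not pass the test (1.34 ± 0.52, adjusted p = 0.0794). Col13a1, at 7.14, 14.5 and 6.63 CPM against 6.98, 8.05 and 6.21 CPM, and Col5a1, at 14.5, 29.7 and 19.4 CPM against 17.7, 20.03 and 15.1 CPM, overlapped between the groups. Of the cartilage markers only Acan could be tested in this table, and it rose too. The sum of these 5 markers was 4.33 to 5.21 CPM in ESC Grb10 pA and 0.777 to 3.25 CPM in ESC WT, with the other 4 below 1 CPM in both groups, and their part in the result was not tested.

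In NPC Grb10 pA against NPC WT 4 of 17 members were called, against 16.5% of all genes. Col26a1 rose, against 7.90% of all genes, and Col27a1, Col6a5 and Col8a2 fell, against 8.64%. Col26a1 was at 15.3, 12.2 and 13.3 CPM in NPC Grb10 pA and at 8.09, 6.88 and 4.72 CPM in NPC WT, without overlap (1.05 ± 0.20, adjusted p = 0.000347). Its log2 fold change was 1.05 in ESCs too, and the difference between the cell types was 0.01 ± 0.24. Col27a1 was at 1.69, 2.49 and 2.05 CPM against 5.50, 4.13 and 6.07 CPM, 2.50-fold lower (-1.32 ± 0.35, adjusted p = 0.0054). Col6a5 was at 4.50, 3.49 and 4.28 CPM against 10.0, 9.93 and 9.77 CPM, 2.37-fold lower (-1.24 ± 0.25, adjusted p = 0.000493). Both were separate between the groups and called under all 11 alternatives. Col8a2, at 4.28, 6.23 and 3.93 CPM against 10.7, 6.11 and 7.08 CPM, overlapped (-0.72 ± 0.27, adjusted p = 0.049) and lost its call under 7 of 11 alternatives.

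Col18a1, Col5a1, Col2a1, Col9a2 and Col13a1 did not pass both thresholds in these NPCs. Col18a1 was at 721, 695 and 706 CPM (-0.04 ± 0.10, adjusted p = 0.786), and Col5a1 at 16.7, 16.9 and 19.7 CPM (0.05 ± 0.18). Col2a1 was at 18.2, 21.4 and 17.6 CPM, a log2 fold change of -0.42 with an adjusted p of 0.0456 whose size was under 0.5. Col9a2, at 3.15, 2.74 and 4.28 CPM against 2.59, 2.90 and 3.71 CPM in NPC WT, and Col13a1, at 4.84, 4.98 and 3.76 CPM against 3.56, 4.43 and 6.404 CPM, overlapped. Of the NPC markers Sox1, Nes and Pax6 fell and Sox2 rose in the same comparison, and 3 of 11 extraembryonic endoderm markers tested fell. The summed NPC markers were at 178 to 204 CPM in NPC Grb10 pA and 204 to 235 CPM in NPC WT, and the part of such cells was not tested.

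The difference of the Grb10 pA effect between NPCs and ESCs was tested. It was called for 3 members, against 5.90% of all genes, all of them with a lower effect in NPCs, against 3.04%. Col18a1 differed by -0.86 ± 0.15 (adjusted p = 0.00066), Col2a1 by -1.90 ± 0.46 (adjusted p = 0.0118) and Col1a1 by -2.12 ± 0.61 (adjusted p = 0.0346). Col18a1 was called under all 16 alternatives, Col2a1 was lost without ESC WT replicate 2, and Col1a1 was lost under 10 of 15. Counts behind Col1a1 were low, with 17 in ESC WT, 40 in ESC Grb10 pA, 23 in NPC WT and 20 in NPC Grb10 pA.

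The enzymes, chaperones, receptors and proteases that handle collagen were followed as a list of 52 genes, of which 46 were tested in the rescue table and 41 in the truncation table. In NPC-ΔZF1 against NPC-WT 14 rose, against 7.19% of all genes, and 10 fell, against 10.5%. The largest changes were rises of P4ha1, the catalytic subunit of prolyl 4-hydroxylase (2.20 ± 0.11, adjusted p = 8.67e-06), Plod2, a lysyl hydroxylase (1.61 ± 0.17, adjusted p = 0.000376), and Adgrg6, an adhesion receptor that binds type IV collagen (1.52 ± 0.28, adjusted p = 0.0047). By step, 6 genes of hydroxylation and glycosylation rose and 2 fell, 2 of folding and export rose and 1 fell, 2 of propeptide processing rose and 2 fell, 1 of cross-linking rose and 2 fell, 3 receptors rose and 2 fell, and 1 of degradation, Timp2, fell. The collagen chaperone Serpinh1 was among those that rose. All counts of this list in the ΔZF1 lines were made without the chromosome 11 median in the offsets. The lower values of that chromosome therefore remain in them. Without NPC-WT replicate 1 the list gave 14 up and 16 down, without NPC-WT replicate 2 it gave 16 and 4, and without either NPC-ΔZF1 library 6 and 2.

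In ESC-ΔZF1 against ESC-WT 2 of these 46 genes rose and 3 fell, against 3.61% of all genes called. They were led by the propeptide proteases Tll1 (2.53 ± 0.43) and Adamts3 (1.80 ± 0.31), which rose, and Adamts2 (-1.31 ± 0.28). The effect of the deletion differed between NPCs and ESCs for 7, against 2.70% of all genes. It was higher in NPCs for 6, led by P4ha1 (2.29 ± 0.16), the cross-linking oxidase Loxl2 (1.99 ± 0.35) and Plod2 (1.499 ± 0.24), and lower for Adgrg1. With differentiation 27 rose and 7 fell in the WT rescue line and 30 rose and 5 fell in the ΔZF1 line. Of all genes, 22.0% rose and 19.9% fell in the WT line, and 20.4% and 16.9% in the ΔZF1 line. In the WT line the largest were the collagen receptor Ddr2 (-4.51 ± 0.33), the oxidase Lox (3.83 ± 1.04) and the endocytic collagen receptor Mrc2 (3.56 ± 0.24). The value of Lox rests on few counts, 0 and 1 in ESC-WT and 17 and 9 in NPC-WT. In the ΔZF1 line the largest were the gelatinase Mmp9 (4.28 ± 0.24), Loxl2 (3.85 ± 0.24) and Ddr2 (-3.81 ± 0.27).

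Of the 41 genes tested in the truncation lines 20 rose and 7 fell in NPC WT against ESC WT, led by Mrc2 (4.69 ± 0.19), Mmp9 (3.61 ± 0.30) and the procollagen enhancer Pcolce (-3.51 ± 0.12). The counts were 19 and 7 in Podxl pA, led by Mrc2 (4.14 ± 0.18), P3h2, a prolyl 3-hydroxylase (4.21 ± 0.53), and Pcolce (-3.77 ± 0.12), and 17 and 9 in Grb10 pA, led by Mmp9 (5.04 ± 0.33), Mrc2 (4.94 ± 0.18) and Pcolce (-3.57 ± 0.12). Of all genes, 16.5% rose and 16.3% fell in WT, 17.1% and 14.7% in Podxl pA, and 17.2% and 17.4% in Grb10 pA. Against WT, ESC Podxl pA had 0 of 41 called by edgeR, against 0.339% of all genes, with 4 at an unadjusted p under 0.05. NPC Podxl pA had 1, Plod2 (0.55 ± 0.10, edgeR adjusted p = 0.0029), against 0.550% of all genes. ESC Grb10 pA had 5 that rose and 4 that fell, against 9.09% of all genes called, led by Timp2 (1.36 ± 0.31), Loxl3 (1.31 ± 0.37) and Adamts14 (1.20 ± 0.27). NPC Grb10 pA had 3 that rose, against 7.90% of all genes, and 7 that fell, against 8.64%, led by P4ha1 (1.38 ± 0.09), Adgrg1 (-1.26 ± 0.31) and Adamts2 (-1.23 ± 0.44). The Grb10 pA effect differed between the cell types for Timp2 (-1.77 ± 0.42), Adgrg1 (-1.40 ± 0.40) and P4ha1 (0.87 ± 0.14), against 5.90% of all genes. The Podxl pA effect differed for 0 of 41 by edgeR, against 0.0980% of all genes, with 6 at an unadjusted p under 0.05. The comparisons of Podxl pA and Grb10 pA with WT share the WT libraries of each cell type.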

How the data were processed

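RNA-seq was measured in 26 libraries in 10 groups, 8 of the CTCF rescue lines and 18 of parental E14 and the truncation lines. The deposited values are whole-number counts per gene, not normalized, made by the authors with STAR on mm10 and featureCounts through the sns pipeline. Strand was not used, so reads of genes that overlap on opposite strands were not told apart, and the overlaps covered at most 6.07% of a member's exons (Col9a3 with Tcfl5). The version of STAR and the gene annotation of the counting are not given in the sources used here. Of the columns of the truncation table, 3 matched no sample and were not used.

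Each table was fitted alone with edgeR 4.0.16 in R 4.3.3 on all its libraries (TMM, filterByExpr by group, quasi-likelihood F test, no term for replicates), which left 16641 and 13268 genes. Genes were called at a Benjamini-Hochberg adjusted p of at most 0.05 over all genes with a change of 0.5 or more on the log2 scale, the cutoffs of the study. The standard error is the log2 fold change divided by the root of its F value. The script was checked on simulated counts. Levels per kilobase used GENCODE exon lengths on GRCm38. For the collagens, ratios with 1 to 3 counts in a group carry 95% counting intervals, which cover counting error only. Pathway genes carry no such interval.

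The members and the lists of pathway and marker genes were chosen with earlier results of these data known. Values in every library were given for members called between a mutant and WT or in an interaction, the 5 highest per kilobase in each table, and the 4 largest rises and falls between NPCs and ESCs of the WT lines. For pathway genes the 3 largest changes called in each comparison were named. Alternatives were RLE normalization, no filter, DESeq2 1.42.0, only the groups compared, a replicate block, the chromosome 11 median in the offsets, and each library left out. The interaction tests of the truncation lines were added after the data had been seen.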

Additional observations from a re-analysis of the deposited data

Results flagged for a closer look

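The effect of Grb10 pA differed between NPCs and ESCs by the interaction test for 3 collagens, each with a smaller or opposite effect in NPCs. The difference was -0.86 for Col18a1, -2.12 for Col1a1 and -1.90 for Col2a1 on the log2 scale. Col6a5 drew attention because it went opposite ways with differentiation, with a log2 fold change of -1.80 for NPC-WT against ESC-WT and of 3.64 for NPC WT against ESC WT, and the NPC and ESC libraries of these WT groups did not overlap in either experiment. The first value was -1.10 and not called by edgeR without ESC-WT replicate 2 (adjusted p = 0.148), and the ΔZF1 line did not show the fall (0.26 for NPC-ΔZF1 against ESC-ΔZF1). This difference between the experiments was not tested.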

How the results depend on the processing

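Counts of collagens called moved by more than 1.5 times in these cases, and the cause was not tested. Without the filter on low counts ESC-ΔZF1 against ESC-WT gave 2 calls, the difference of the ΔZF1 effect between NPCs and ESCs 5, ESC Podxl pA against ESC WT 2 and the difference of the Podxl pA effect 1. DESeq2 gave 2 for the difference of the ΔZF1 effect and 1 for that of the Podxl pA effect. Fitting only the groups compared gave 4 for ESC-ΔZF1 against ESC-WT and 2 for ESC Grb10 pA against ESC WT. Leaving out 1 library at a time gave 5 to 20 for NPC-ΔZF1 against NPC-WT, 0 to 11 for the difference of the ΔZF1 effect, 0 to 0 for ESC Podxl pA against ESC WT, 2 to 5 for ESC Grb10 pA against ESC WT and 1 to 3 for the difference of the Grb10 pA effect. Of the values of single genes under the alternatives, 923 kept direction and side of the threshold, 110 lost their call and 1 turned: Col1a1 in ESC-ΔZF1 against ESC-WT was 0.24 with the chromosome 11 median in the offsets. Between the groups that were compared, the deviations of same-numbered libraries correlated at -0.015 to 0.13 over 8 pairs of the rescue table and at -0.090 to 0.083 over 21 pairs of the truncation table. With 2 libraries per group the deviations in the rescue table are mirror images, so each value there occurs for both replicate numbers. The values were not above 0.1 in every pair, so the numbers were not taken to pair the samples. With a replicate block the counts were 11 for NPC-ΔZF1 against NPC-WT, 3 for NPC Grb10 pA against NPC WT and 9 for NPC Podxl pA against ESC Podxl pA, and in the other comparisons the count was the one given above. Depth limits the truncation table most, where 18 collagens stayed below 10 counts in every library.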
